A study of Mus musculus with 2 samples.

Results

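The amylase genes Amy1, Amy2b and Amy2a5 and the pancreatic ribonuclease gene Rnase1 were examined in the stomachs of 2 mice. The 4 genes were picked by symbol, with earlier results of these arrays known, and they make up 4 of 30945 genes with a named probe set and 7 of the 41345 probe sets deposited. Amy2a5 had 4 probe sets, and Amy1, Amy2b and Rnase1 had 1 each. Both mice were 12 weeks old and came from a mixed background that had been backcrossed to C57/B6 for about 10 generations. The control mouse carried Atp4bCre, in which Cre recombinase is driven by the Atp4b promoter of the proton pump. The second mouse had MIST1-LSL in addition to Atp4bCre, a construct meant to let Cre switch on the transcription factor MIST1 in the acid-secreting parietal cells. The probe set of Bhlha15, the gene of MIST1, read 5.26 in control and 5.30 in MIST1-LSL, so the arrays do not show that induction. Which part of the transcript its probes cover is not given, and MIST1-LSL here names the array by its label. There was 1 array per genotype, from 1 stomach each. No difference reported here therefore has a replicate check, and none was tested. The sample labels call the tissue corpus, while the design text speaks of whole stomachs.

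Alpha-amylases cut the internal bonds of starch. Mice carry them as a cluster of closely related genes, in which Amy1 is the salivary and liver form and the Amy2 genes are the pancreatic forms. Rnase1 is the secreted digestive ribonuclease of the pancreas, and the gastric chief cell is also known to express it. In pancreatic acinar cells these enzymes are packed into zymogen granules, and MIST1 is a transcription factor of such granule-forming cells. The workbook places the amylases in band 3 F3 and Rnase1 in band 14 B-C1. In the RefSeq annotation the cluster holds 7 protein-coding amylase genes in the order Amy2b, Amy2a5, Amy2a4, Amy2a3, Amy2a2, Amy2a1 and Amy1.

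The start regions of the amylases show which parts of the cluster resemble each other, and Rnase1 stands beside them as a gene outside the family. Each window runs from 250 bases before to 50 bases after an annotated start (RefSeq, GRCm38.p6). All lie on the minus strand and are written in the direction of transcription. Capitals mark an E-box, CANNTG, the class of motif that MIST1 and the acinar factor PTF1A bind, or the TATA motif TATAAA on either strand. E-box and TATA matches did not overlap, and CATATG and CAGCTG, searched as well, are themselves E-boxes. The windows lie at chr3:113156678-113156977 for Amy2b, chr3:113258650-113258949 for Amy2a5, chr3:113577701-113578000 for the upstream start of Amy1 and chr14:51146718-51147017 for Rnase1.
Amy2b: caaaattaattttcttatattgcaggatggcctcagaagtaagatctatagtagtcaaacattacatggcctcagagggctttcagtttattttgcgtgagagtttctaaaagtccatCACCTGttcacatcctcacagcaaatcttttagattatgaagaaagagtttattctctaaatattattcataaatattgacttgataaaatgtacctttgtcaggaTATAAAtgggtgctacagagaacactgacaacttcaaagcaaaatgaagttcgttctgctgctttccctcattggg
Amy2a5: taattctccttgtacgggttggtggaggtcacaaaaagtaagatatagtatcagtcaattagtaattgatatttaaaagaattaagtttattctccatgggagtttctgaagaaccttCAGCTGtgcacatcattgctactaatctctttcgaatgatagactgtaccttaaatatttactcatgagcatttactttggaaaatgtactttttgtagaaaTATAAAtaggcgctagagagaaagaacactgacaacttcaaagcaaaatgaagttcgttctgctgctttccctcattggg
Amy1 upstream start: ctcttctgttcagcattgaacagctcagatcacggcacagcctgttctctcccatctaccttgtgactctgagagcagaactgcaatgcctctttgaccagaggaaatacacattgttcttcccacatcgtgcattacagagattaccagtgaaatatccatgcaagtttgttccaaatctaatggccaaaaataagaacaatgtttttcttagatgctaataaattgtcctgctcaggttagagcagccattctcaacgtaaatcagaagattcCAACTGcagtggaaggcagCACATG
Rnase1: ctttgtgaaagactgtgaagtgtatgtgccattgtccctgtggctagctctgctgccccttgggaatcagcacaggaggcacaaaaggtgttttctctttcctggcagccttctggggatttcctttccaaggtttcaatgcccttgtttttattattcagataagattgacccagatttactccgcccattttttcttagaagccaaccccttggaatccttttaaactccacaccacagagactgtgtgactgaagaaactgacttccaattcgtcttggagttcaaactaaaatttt

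The windows of Amy2b and Amy2a5 were identical in 218 of 313 aligned columns (69.6%), and their last 58 bases were the same. The other pairs of windows, aligned in the same way, were 43.2% to 48.3% identical. Amy2b and Amy2a5 each held 1 E-box, with its first base 132 bases before the start in both. The E-boxes differed by C3G, counted from 1 at the first base of the motif and with the base of Amy2b first, so that Amy2b had CACCTG and Amy2a5 had CAGCTG. The TATA motif began 26 bases before the start of Amy2b and 30 bases before that of Amy2a5. The windows of Amy2a2, Amy2a3 and Amy2a4 were identical to one another, and their last 162 bases were the first 162 of Amy2a5, which puts their annotated starts 138 bases further upstream on the same sequence. The window of Amy2a1 differed from these and did not end in the sequence that begins the Amy2a5 window.

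Amy1 has 2 annotated starts, 2988 bases apart. The upstream one, known as the start used in the salivary gland, held E-boxes only after the start, at positions 26 and 45. The downstream one held a TATA motif 63 bases before the start and no E-box. No E-box or TATA motif lay in the Rnase1 window. CATATG was in none of the 5 windows and in 3.91% of the 32851 windows of all genes, CAGCTG was in 16.3% of these, TATAAA in 13.6% and CANNTG in 72.3%. A match is a matter of letters and says nothing about binding.

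**Figure D1:**
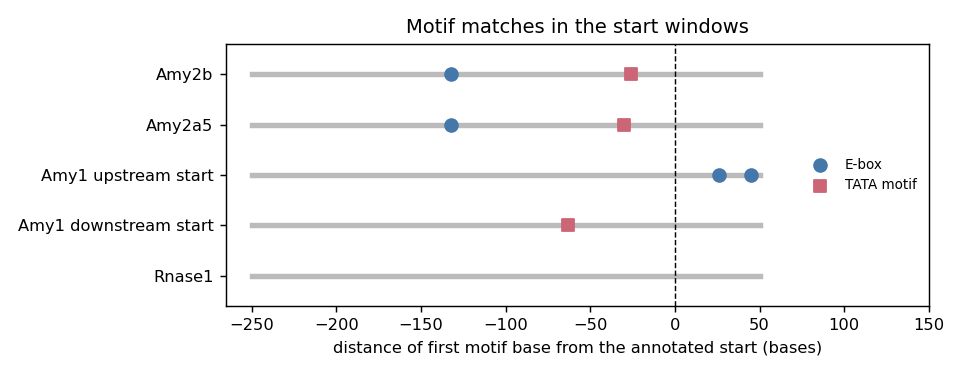
Position of the first base of each motif match (horizontal axis, bases from the annotated start) in the 5 start windows of the amylases and Rnase1, with circles for E-boxes and squares for the TATA motif. Amy2b and Amy2a5 share an E-box 132 bases before the start and a TATA motif 26 or 30 bases before it, and Rnase1 has neither.

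All 7 probe sets read higher in the MIST1-LSL stomach, but their genes were chosen on this contrast, so nothing is read from the shared direction. Levels are RMA values on the log2 scale, where a difference of 1 is a 2-fold difference, and differences are MIST1-LSL minus control throughout. A floor was set at 4.62, the median of all values on both arrays, because no detection calls were used and signal below it was not shown to exceed background. With the probe set of highest mean taken for each gene, 17358 genes were above the floor on at least 1 array. Of these, 250 genes (1.44%) differed by at least 2-fold, with 168 (0.968%) higher and 82 (0.472%) lower in MIST1-LSL. The 4 member genes were all among the 168, but they had been chosen on this contrast, so nothing is read from that count. The middle 95% of genes lay between -0.63 and 0.68.

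Amy2a5, a pancreatic amylase, was well above the floor on both arrays. Control readings were 9.64 for the probe set of 34 probes and 9.30, 9.25 and 9.03 for the sets of 30, 33 and 36 probes. The same sets gave 12.16, 12.01, 12.18 and 11.84 in MIST1-LSL. All 4 sets were thus higher in MIST1-LSL, on 1 pair of arrays and for a gene chosen on this contrast. Their differences ran from 2.52 to 2.93, with a mean of 2.74 ± 0.17 (SD over 4 probe sets of 1 pair of arrays), or 5.75-fold to 7.63-fold on the linear scale. The intensity of the set of 33 probes went from 610 to 4652. That SD describes how probe sets vary and not how mice vary. For the 479 genes that had more than 1 set above the floor, the differences of a gene's sets varied with a pooled SD of 0.20.

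The 4 sets are not 4 independent readings of Amy2a5. Each names a transcript of Amy2a2 after that of Amy2a5, and the assignment text is cut off behind it, so the share of each near-identical copy is uncertain. No probe set carried Amy2a1, Amy2a2, Amy2a3 or Amy2a4 as its first name. The MIST1-LSL readings lay 1.18 to 1.53 below the highest level on that array (13.37).

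Amy2b, another pancreatic amylase gene at the far end of the cluster from Amy1, had a probe set of 8 probes. The levels were 2.84 in control and 7.26 in MIST1-LSL, which differ by 4.42. The authors' deposited table gives this as a ratio of 21.3. The control reading was below the floor, however, and with the floor in its place the difference came to 2.64, or 6.23-fold. The first value exceeded that of the highest Amy2a5 set by 1.48, while the second lay inside the Amy2a5 range.

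Amy1 had the smallest difference of the 4 genes. Its 13 probes gave 4.10 for the control mouse, below the floor, and 5.41 for MIST1-LSL, which differ by 1.31 or 2.48-fold. Counted from the floor it was 0.79, or 1.72-fold, which is short of the 2-fold rule. The lowest Amy2a5 set differed by 1.22 more than Amy1. Whether the Amy1 probes also read Amy2 transcripts was not tested.

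Rnase1 was above the floor on both arrays, at 7.46 in control and 9.61 in MIST1-LSL, read by 25 probes. The difference was 2.14, or 4.42-fold. It was 0.38 smaller than that of the lowest Amy2a5 set and 0.84 larger than that of Amy1. Under 3 rescalings of the arrays and with the series table values, the differences stayed between 4.40 and 4.45 for Amy2b, 2.52 and 2.97 for the Amy2a5 sets, 2.15 and 2.18 for Rnase1 and 1.31 and 1.35 for Amy1.

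**Figure D2:**
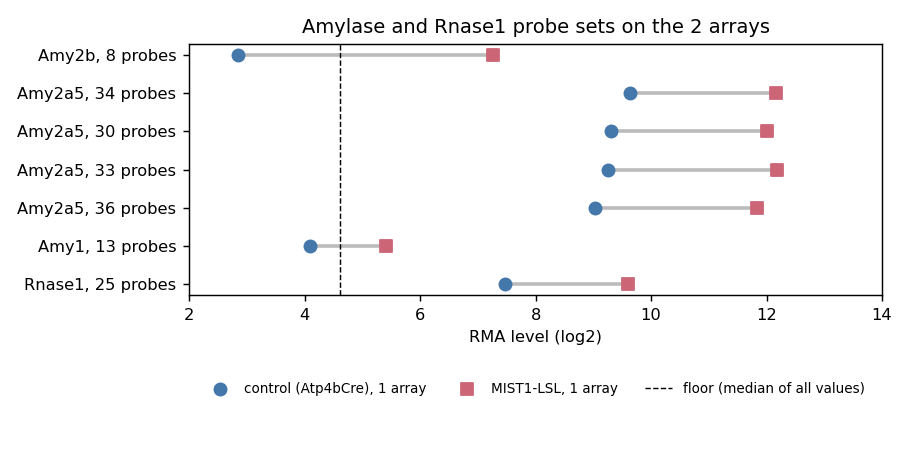
RMA levels (horizontal axis, log2) of the 7 probe sets on the control array (circles) and the MIST1-LSL array (squares), with the floor of 4.62 as a dashed line. Every probe set of these genes, which were chosen on this contrast, reads higher in MIST1-LSL. The control readings of Amy2b (2.84) and Amy1 (4.10) lie below the floor.

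**Figure D3:**
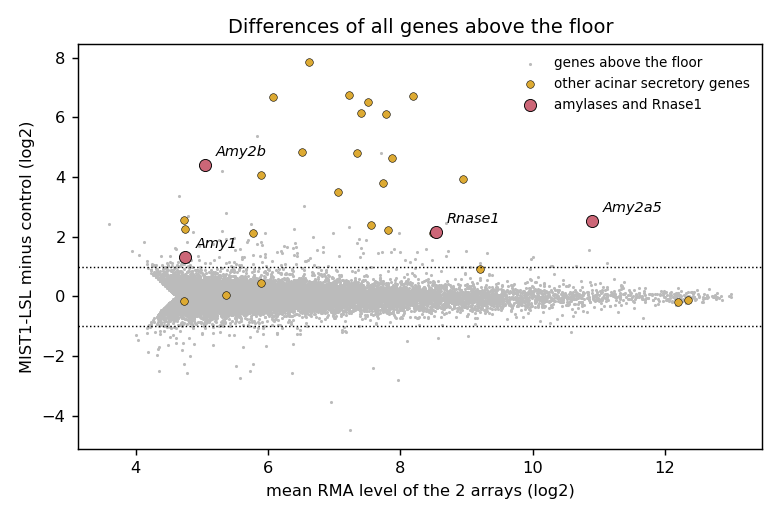
Difference between MIST1-LSL and control (vertical axis, log2) against the mean level of both arrays (horizontal axis, log2) for the 17358 genes above the floor, with the 2-fold rule as dotted lines. The 4 genes lie between 1.31 and 4.42, and most other acinar secretory genes lie above the upper line as well.

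Most other genes of the RNase A family, secreted ribonucleases related to Rnase1, were below the floor. Of 21 family genes listed, 19 had a named probe set and 14 of these were below the floor on both arrays. Of the 5 that remained, 1 was at least 2-fold higher and none 2-fold lower, beside 0.968% and 0.472% of all genes above the floor. The median difference was 0.48, against -0.03 over all genes above the floor. The list as first drawn up also held the inhibitor gene Rnh1, and with it the median was 0.35. The exception was Rnase2a, a ribonuclease of the eosinophil-associated group, which read 4.53 in control and 6.97 in MIST1-LSL. Its difference of 2.44 was larger than that of Rnase1, but its control reading was below the floor and its group holds near-identical copies. Ear2 and Rnase2b, of the same group, read 4.75 and 4.73 in control and 5.58 and 5.21 in MIST1-LSL. Rnase6, known as an antimicrobial ribonuclease, read 5.16 and 5.38.

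Ang, the ribonuclease angiogenin, read 9.05 in control and 8.85 in MIST1-LSL. Rnase4 overlaps Ang in the annotation and had no named probe set, so the Ang reading may hold both. Rnh1, the cytosolic inhibitor that binds these ribonucleases, read 5.96 on both arrays. Among 14 ribonucleases of other families none passed the 2-fold rule, beside 1.44% of all genes above the floor, and the median was -0.03. Rnaseh2c, a subunit of ribonuclease H2, differed by 0.61, and the other subunits Rnaseh2a and Rnaseh2b by 0.28 and 0.24. Endou, an endoribonuclease, differed by -0.30.

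Genes of starch digestion, sugar uptake and glycogen breakdown were compared as 1 list. Of 17 genes, 12 had a named probe set and 8 passed the floor. Of those, 1 was higher by 2-fold or more, beside 0.968% of all genes above the floor, and the median was 0.26. Slc5a1, the intestinal sodium-glucose transporter, had control and MIST1-LSL levels of 4.18 and 5.26, which differ by 1.08. Mgam, which splits the oligosaccharides left by amylase, read 4.36 and 4.97, and Treh, trehalase, read 4.37 and 4.87. Slc2a5, a fructose transporter, read 4.54 and 5.01. All 4 were below the floor in control, and with the floor in place none of the list was 2-fold higher. Sis, sucrase-isomaltase, was below the floor on both arrays (3.50 and 4.12). The enzymes of glycogen and lysosomal breakdown differed by less than the 2-fold rule, with Gaa, acid glucosidase, at 0.06, the phosphorylases Pygb and Pygl at -0.22 and -0.30, and the glucosidase Ganc at -0.42.

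**Figure D4:**
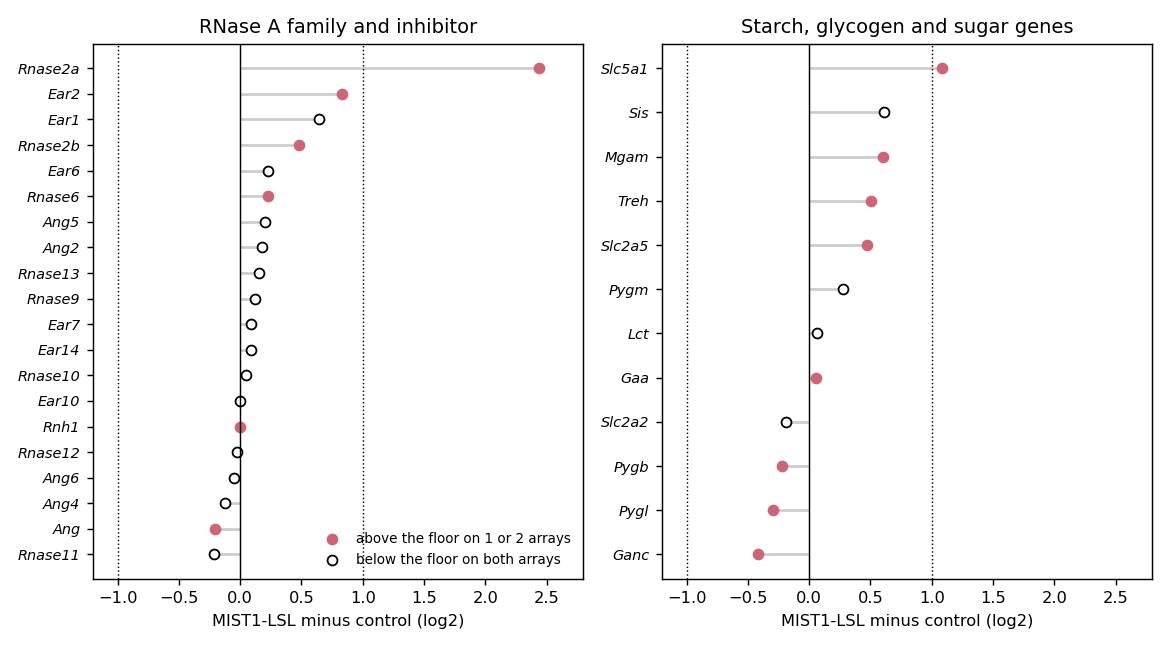
Difference between MIST1-LSL and control (horizontal axis, log2) for the named genes of the RNase A family with its inhibitor and for those of starch, glycogen and sugar handling, with open circles for genes below the floor on both arrays and dotted lines at the 2-fold rule. Rnase2a at 2.44 and Slc5a1 at 1.08 are the points beyond a dotted line.

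Other secretory genes of pancreatic acinar cells were higher on the same array. Of 29 genes listed, 28 had a named probe set and 26 passed the floor. Over all genes above the floor, 0.968% were higher by 2-fold or more and 0.472% were lower. Of the 26 listed genes, 20 were higher by 2-fold or more and none was 2-fold lower. Their median difference was 3.65, and their summed intensity was 11902 in control and 29942 in MIST1-LSL. Pnlip, pancreatic lipase, differed by 7.84, the trypsinogen Prss2 by 6.75, the lectin Reg1 by 6.71 and the granule protein Zg16 by 6.68, and Reg1 alone of them exceeded the floor in control. Counted from the floor, the differences were 5.92 for Pnlip, 5.98 for Prss2 and 4.80 for Zg16. The colipase gene Clps was high on both arrays, at 12.41 and 12.28, and so was the phospholipase gene Pla2g1b, at 12.30 and 12.11. Their intensities, 5430 and 4985 for Clps and 5039 and 4416 for Pla2g1b, are part of the sums. Together these genes make up most of the control sum, so the sums understate the differences of the other genes. Of the 26 genes above the floor, 3 were below 0, namely Clps, Pla2g1b and Prss3. The list was chosen with its direction known. In bulk tissue more cells of a type and more RNA per cell cannot be told apart.

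Transcription factors of acinar cells did not show a 2-fold difference, which 1.44% of all genes above the floor showed. All 8 had a probe set, 6 were above the floor, and their median was 0.02. Ptf1a, the acinar factor that binds E-boxes, read 4.05 in control and 4.93 in MIST1-LSL, and its partner Rbpjl read 5.20 and 5.15. Bhlha15 is on this list too, with the readings given at the start.

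Markers of other cell types that express amylase or ribonuclease, or that lie near the pancreas, were compared in the same way. Over all genes above the floor 1.44% passed the 2-fold rule. A short list with none past it is therefore not shown to be unchanged. Of 10 islet genes, 4 were above the floor and none passed the 2-fold rule, with a median of -0.29. The hormone genes Ins1 and Ins2 were below the floor on both arrays (3.66 and 3.57, and 3.97 and 3.85), and Gcg read 5.01 and 5.13. The other islet genes above the floor on at least 1 array, Ppy, Pdx1 and Mafa, differed by -0.33, -0.31 and -0.28. The summed islet intensity was 262 in control and 228 in MIST1-LSL. Of 6 duct genes, 5 were above the floor with none past the rule and a median of -0.11, and the summed intensities were 5578 and 5353. Spp1, osteopontin, differed by -0.57 and the keratin gene Krt7 by -0.25.

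Of 19 salivary gland genes, 18 had a named probe set and 12 of these were below the floor on both arrays. Among the rest the median was 0.09 and 1 was at least 2-fold higher, beside 0.968% of all genes above the floor. That gene was Klk1, tissue kallikrein, which the pancreas is also known to make. It read 10.07 and 11.64. Its intensity went from 1077 to 3184, beside a summed intensity of 1469 and 3566 for the list. The defining salivary genes Bpifa2, Car6 and Smr3a were below the floor on both arrays, at 4.38, 3.96 and 3.11 in control and 4.09, 4.12 and 2.86 in MIST1-LSL. The part of any of these cell types in the amylase and Rnase1 differences was not tested.

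Gastric chief and parietal genes had medians below 0, as did the housekeeping genes (-0.13) and all genes above the floor (-0.03). Of 6 chief cell genes above the floor, none passed the 2-fold rule, beside 1.44% of all genes above the floor. All 6 were below 0 and the median was -0.16. The part of chief cells in the Rnase1 difference was not tested. Pga5, a pepsinogen, differed by -0.71, Cblif, the intrinsic factor, by -0.22 and Pgc by -0.19. All 12 parietal genes were above the floor on at least 1 array, with a median of -0.18, 9 below 0 and 3 above it. The anion transporter Slc26a7, at -2.49, was the 1 at least 2-fold lower. Its MIST1-LSL reading of 4.48 was below the floor, and counted from the floor it differed by -2.35. The next largest differences were -0.77 for Aqp4, also below the floor in MIST1-LSL, -0.71 for Kcnj15 and -0.55 for Slc26a9. The proton pump genes Atp4a and Atp4b read 11.53 and 12.13 in control and 11.43 and 12.11 in MIST1-LSL. Among 8 small intestinal genes above the floor the median was -0.03 and 1 was 2-fold higher, the phosphatase Alpi at 1.04, while Fabp2 read 10.10 and 10.00. None of 4 hepatocyte genes (median -0.46), 6 endothelial genes (median -0.03) or 9 housekeeping genes (median -0.13) passed the rule, beside 1.44% of all genes above the floor. Of the hepatocyte genes above the floor, Alb, albumin, read 5.08 and 5.24. Cyp2e1, below the floor in MIST1-LSL, differed by -0.77, Ttr by -0.53 and Apob by -0.40.

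**Figure D5:**
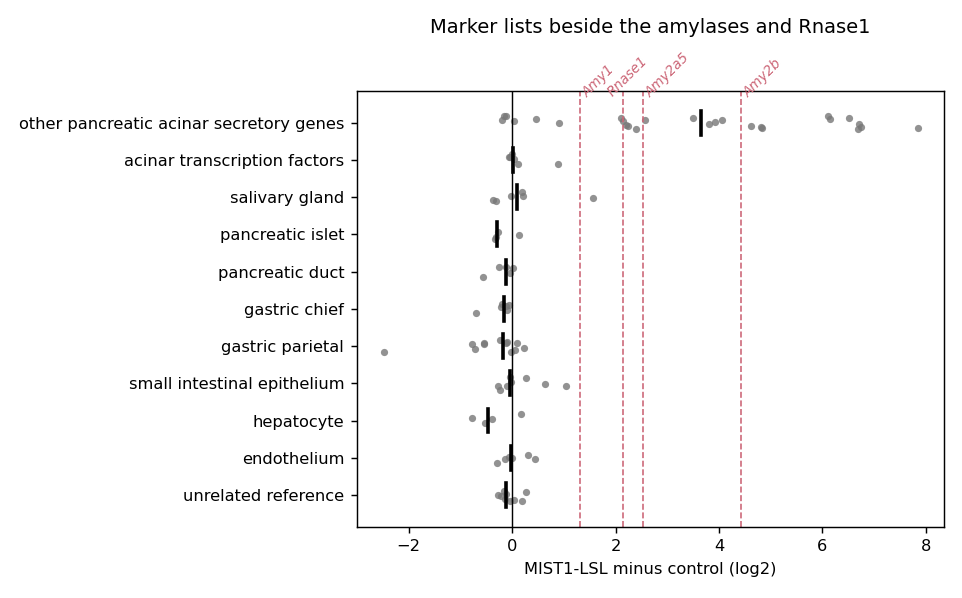
Difference between MIST1-LSL and control (horizontal axis, log2) of each gene above the floor in 11 lists, with a dot per gene and a bar at the list median, and dashed lines at the 4 member genes. The acinar secretory list has a median of 3.65, and the other medians lie between -0.46 and 0.09.

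The genes whose pair of readings lay nearest to each member were found by straight-line distance between the log2 readings on the 2 arrays. The readings rest on different probes, so nearness does not mean equal amounts of RNA. The members were chosen on these same readings, so a near gene shares the member's difference by construction, and nothing is read from which genes are near. For Amy2b and Amy1, every gene named as nearest was below the floor in control. Those distances rest in part on signal not shown to exceed background. Nearest to Amy2b were Serpini2, a serine protease inhibitor known from the pancreas (3.21 in control and 7.39 in MIST1-LSL, distance 0.39), the lectin gene Reg2 (distance 0.93) and the granule membrane protein gene Gp2 (1.21). Nearest to Rnase1 were Try4, a trypsinogen that read 7.42 and 9.56 (distance 0.06), the cystatin family gene Cst8 (0.32) and the smooth muscle actin gene Acta2 (0.45). The genes nearest to Amy2a5 lay further off, with Klk1 at a distance of 0.68, Spink4, an inhibitor of the Kazal family, at 1.04 and mt-Ty, a mitochondrial tRNA gene, at 1.12. Nearest to Amy1 were Tmem252, the predicted gene Gm5476 and Isg15, an interferon-induced ubiquitin-like protein, at distances of 0.10, 0.11 and 0.14.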

How the data were processed

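Per the labels' protocols, total RNA of 1 stomach per genotype was amplified and labelled with biotin for Affymetrix arrays, and amplification can alter relative levels. The authors processed the data with RMA and Partek, per the submitters' processing notes, with versions, build and annotation not given in the sources used here. Log2 levels deposited in a workbook stand beside the linear intensity (2 to their power) and the authors' ratio of MIST1-LSL to control intensity. The deposited series table differs from the workbook log2 levels by at most 0.005.

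The members were the workbook rows with the symbols Amy1, Amy2b, Amy2a5 and Rnase1. The members, the 14 gene lists and the naming rule were chosen with earlier results of these data known. Some genes chosen for the starch digestion and duct lists are not reported here, and the counts and medians of both lists leave them out. Of 41345 probe sets, 32471 carried a gene: names were updated through RefSeq (GRCm38.p6) by accession for 21749, gene identifier for 2411 and symbol for 4218, and 4093 kept the file's name. The assignment text is cut off, so further genes of a probe set are unseen. Detection calls were not analysed here, and with 1 array per genotype the number of arrays limits the precision.

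No coordinates of genes are given because the arrays' build is not stated, and the windows printed are RefSeq's. Named genes were the members, list members above the floor for starch digestion and the RNase A family, up to 4 of each other list by size of difference, defining markers, and the 3 nearest genes per member. The alternatives were another quantile normalization, centring on the median, loess with a span of 0.3, the series table, other floors, probe-set rules and fold rules, and, added after seeing the data, setting low levels to the floor and leaving the inhibitor out of the RNase A list. The procedure was tested on simulated arrays with large changes in genes well above the floor. That does not cover readings below the floor, such as the control readings of Amy2b and Amy1. Analyses used Python 3.11.15, numpy 2.4.6, pandas 2.3.3, statsmodels 0.14.6, Biopython 1.88 and matplotlib 3.10.9.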

Additional observations from a re-analysis of the deposited data

How the results depend on the processing

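No paired analysis was possible because each genotype has 1 array, which also leaves no replicate to leave out. Several of the recomputed member differences could hardly move. The series table differs from the workbook by at most 0.005, and centring on the median shifts every difference by the same amount. Setting low levels to the floor leaves probe sets above it on both arrays unchanged. The following count is therefore no measure of stability. Of 36 recomputed member differences, 33 moved by less than the SD of 0.20 between probe sets of a gene and none changed sign. The exceptions were Amy2a5 at 2.74 with its probe sets averaged, and Amy2b and Amy1 at 2.64 and 0.79 with low levels set to the floor, an alternative chosen after seeing the data. Of the 4 member genes, 3 remained at least 2-fold higher there, and 3 were also counted with the floor at the 75th percentile or a 3-fold rule (without Amy1 in both) and with probe sets of at least 10 probes (without Amy2b).

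Genes past the fold rule numbered 556 without a floor (358 higher, 198 lower), 1182 at 1.5-fold (606 and 576) and 91 at 3-fold (67 and 24), and those lower came to 42 with the floor at the 75th percentile and 49 with low levels set to the floor. The median of the acinar secretory list was 3.03 without a floor, 3.86 with the floor at the 75th percentile or with at least 10 probes, and 3.40 with low levels set to the floor. Fewer or more genes enter under other floors by construction. Of 168 recomputed list medians, 160 moved by less than 0.20. Other fold rules cannot change a median and the series table hardly can, so this count is no measure of stability. Raising the floor to the 75th percentile took the starch list median to -0.26 and that of the RNase A family with its inhibitor to -0.0049, and without a floor the latter was 0.11. With at least 10 probes Klk1, read by 8, leaves the salivary list, whose median is then -0.16 with no member 2-fold higher. Levels below the floor limit what Amy2b and Amy1 can show.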

Other observations

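The protein-coding genes that flank the members in the RefSeq order were looked up after the values above had been seen. On chromosome 3, Prmt6, an arginine methyltransferase gene, lies next to the amylase cluster on the Amy2b side and read 5.24 in control and 5.14 in MIST1-LSL. Rnpc3, a splicing protein gene, lies next to Amy1 and read 6.76 on both arrays. Exactly equal readings on both arrays were seen for 1476 of the 41345 probe sets. On chromosome 14, the neighbours of Rnase1 with a probe set were Rnase6, which differed by 0.23, and Rnase2b, which differed by 0.48. Of these 4 flanking genes, none differed by 2-fold, beside 1.44% of all genes above the floor. At that share nothing is read from the count.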
